A study of Danio rerio with 6 samples.

Results

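Molecular chaperones were examined in RNA-seq of whole zebrafish ovaries from ddx4-L mutants and from WT fish. The members were the genes whose zebrafish symbol, ignoring case, begins with hsp, dnaja, dnajb, dnajc, hsf, bag, cct or serpinh1 in the forms the rule allows, and that had at least 10 counts in at least 3 of the 6 libraries. Of 32519 genes in the table, 110 matched by symbol and 98 of these passed the minimum. The 98 comprised 31 DNAJC, 16 HSP70, 13 DNAJB, 8 CCT, 7 BAG and 6 DNAJA genes. There were also 4 HSP90, 3 small heat shock protein and 3 HSF genes, the HSP60 and HSP10 pair and 1 SERPINH1 gene. A further 4 genes, HSF2BP, HSPBP1, HSPBAP1 and hspb11, were set apart as matched by name only, hspb11 by the role of the human gene of that name. In the ddx4-L mutant line (ddx4-E4Δ in the labels), CRISPR-Cas9 had been aimed at the alternatively spliced exon 4 of ddx4, the gene of a germline RNA helicase, so that the ovary-biased long transcript is lost while the short one remains. Per the study's methods, the mutant line has a deletion of 7 bp within exon 4. The WT fish carry no such change. Ovaries of both genotypes were collected at 6 months post-fertilization (mpf), with 3 libraries of each genotype, and a single mutant line was used. Whether each library came from 1 fish is not given in the sources used here, so the p-values measure the spread between these samples.

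Chaperones bind unfolded or partly folded proteins and keep them from aggregating. HSP70 proteins bind and release their clients in a cycle driven by ATP. J-domain proteins (DNAJA, DNAJB and DNAJC) bring clients and trigger ATP hydrolysis, and BAG proteins and the HSPA4 group promote release of the nucleotide. HSP90 acts on clients at a late stage of folding, the CCT ring folds actin and tubulin, and HSPD1 with its lid HSPE1 works in mitochondria. HSF transcription factors switch on the inducible members when cells are heated or otherwise stressed. In the ovary, growing oocytes make and store large amounts of protein and of maternal mRNA, and many chaperone transcripts are part of that store. The roles given here are those known from yeast and mammalian proteins, unless fish are named.

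Values are CPM, the counts of a gene scaled to 1000000 counts per library after TMM factors, and are given in replicate order. They are not corrected for transcript length, so levels are compared between libraries for 1 gene and not between genes. Column sums ranged from 76520483 to 78770562 in ddx4-L mutant libraries and from 76970351 to 86263179 in WT libraries, and 12 counts, equal to about 0.142 to 0.161 CPM, were taken as the floor below which a gene cannot be told from 0. Across 19353 genes tested with edgeR's quasi-likelihood test, 884 had a Benjamini-Hochberg adjusted p under 0.05, of which 379 were higher and 505 lower in mutants. With total-count scaling the split was 533 higher and 411 lower. The whole ddx4 gene was at 231, 248 and 250.5 CPM in mutant ovaries, against 215, 241 and 211 CPM in WT ovaries. A count over all exons does not show the small deletion within exon 4, so it checks no label. The labelled tissue was checked with oocyte markers, whose summed level was 15251 to 20256 CPM in mutant libraries and 18855 to 19545 CPM in WT libraries. Of 8 such markers, 4 did not overlap between genotypes, 1 higher and 3 lower in mutants, against 28.4% without overlap over all genes tested. The called share over all genes tested was 4.57%, and 1 of the 8 markers was called. This was GDF9, a growth factor gene of oocytes, at 38.8, 39.9 and 41.3 CPM in mutant ovaries, against 76.5, 66.5 and 69.0 CPM in WT ovaries (log2 -0.82, adjusted p = 0.00636 in edgeR's quasi-likelihood test, called with each library left out). The summed level of 13 granulosa and theca markers was 243, 247 and 222 CPM in mutant ovaries, against 282, 330.4 and 292 CPM in WT ovaries (exact permutation test, two-sided, p = 0.1, the smallest p that 3 against 3 allows). In the same exact permutation test the oocyte sum had p = 0.5 and the other marker lists p of 0.3 to 0.7, without adjustment over lists. Of these markers, 5 had positive and 8 negative fold changes, 1 was called lower and 0 higher. The called gene was CYP11A1 (ENSDARG00000002347), at 132, 140 and 119 CPM in mutant ovaries, against 186, 231 and 223 CPM in WT ovaries. CYP17A1 was higher without overlap, at 78.6, 89.0 and 86.3 CPM in mutant ovaries, against 74.3, 72.6 and 33.0 CPM in WT ovaries. The sum thus rests largely on CYP11A1 (ENSDARG00000002347) and CYP17A1. The part of either marker list in the chaperone values was not tested. In whole-ovary RNA, fewer cells of a type and less RNA per cell cannot be told apart.

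Few chaperone transcripts passed the test between genotypes, and the shares of members were near those over all genes tested. Of the 97 members that could be tested, 3 passed an adjusted p of 0.05, or 3.09%, against a background of 4.57% over all genes tested. DNAJB9 (ENSDARG00000016886) and DNAJC11 (ENSDARG00000102696) fell in mutants and BAG4 (ENSDARG00000043179) rose. Asking also for a log2 change of 1 or more in size left 2 members, or 2.06%, against 3.11% of all genes. An unadjusted p under 0.05 was found for 18.6% of members and 19.9% of all genes. The values of the genotypes did not overlap for 26 members (26.8%), 10 with mutants higher and 16 with mutants lower, against 28.4% of all genes. The median log2 fold change was -0.02 over the members and 0.01 over all genes tested. Its size was under 0.25 for 54.6% of members and for 43.2% of all genes. That share depends on level: it held for 26 of 29 members of 100 CPM or more and for 3 of 13 tested members under 1 CPM. Members and all genes were not matched for level, so the 2 shares do not show that chaperones changed less. The 95% interval of the fold change lay within a log2 change of 1 in either direction for 62 members and was wider or farther out for 35. Among these 35, only the interval of DNAJC11 (ENSDARG00000102696), -4.61 to -2.37, lay wholly beyond a change of 1. For the others the data cannot show whether a change of that size was present.

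**Figure D1:**
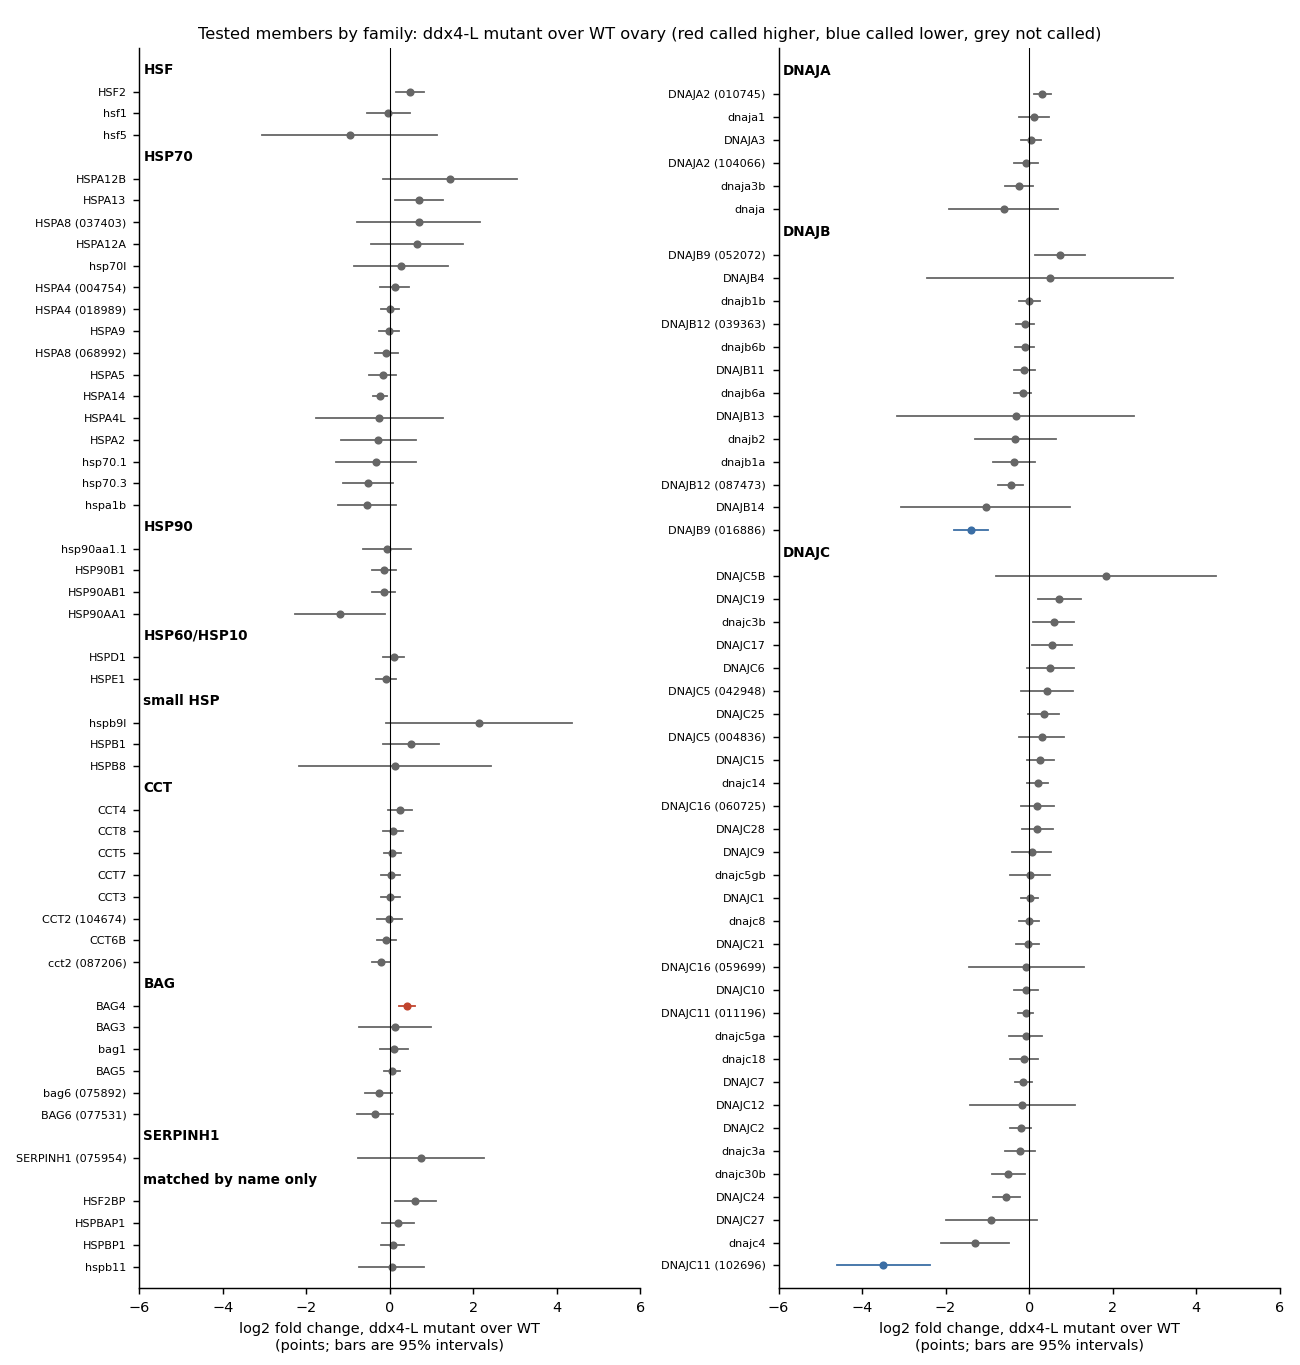
Log2 fold change of each tested member (ddx4-L mutant over WT), grouped by family, with points for the estimate and bars for its 95% interval. The 2 blue genes, DNAJB9 (ENSDARG00000016886) at -1.39 and DNAJC11 (ENSDARG00000102696) at -3.49, were called lower in mutants, the red gene, BAG4 at 0.41, was called higher, and the grey genes were not called. In the plot, numbers in brackets are the last digits of the Ensembl gene ID, given where genes share a symbol.

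DNAJC11 (ENSDARG00000102696) had the lowest fold change of all members. The mammalian protein sits in mitochondrial membranes and associates with the complex that shapes cristae. Its transcript was at 0.936, 0.275 and 0.542 CPM in mutant ovaries, against 7.23, 6.52 and 6.06 CPM in WT ovaries. Every mutant library was below every WT library, and mutant replicate 2 was the lowest. The log2 fold change was -3.49 ± 0.48 (SE), with an adjusted p of 0.0112 in edgeR's quasi-likelihood test. Leaving out any of the 6 libraries kept the call, at log2 changes of -4.01 to -3.17 and adjusted p of 0.0209 to 0.0479. A second gene of this symbol, DNAJC11 (ENSDARG00000011196), was at 115, 126 and 113 CPM in mutant ovaries, against 122, 123 and 129 CPM in WT ovaries. Its genotypes overlapped, its log2 fold change was -0.08, and the 95% interval was -0.26 to 0.10.

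DNAJB9 (ENSDARG00000016886) encodes an endoplasmic reticulum co-chaperone of HSPA5, known in mammals as a target of the unfolded protein response and as a brake on its sensor IRE1. It was at 28.4, 19.4 and 29.9 CPM in mutant ovaries, against 71.0, 71.4 and 61.4 CPM in WT ovaries. All 3 mutant libraries were below all 3 WT libraries. The log2 fold change was -1.39 ± 0.18 (SE), with an adjusted p of 0.00853 in edgeR's quasi-likelihood test, and leaving out single libraries gave adjusted p of 0.012 to 0.0342. The second gene of this symbol, DNAJB9 (ENSDARG00000052072), stood the other way. It was at 9.51, 6.16 and 9.03 CPM in mutant ovaries, against 5.10, 4.14 and 5.50 CPM in WT ovaries. Every mutant library was above every WT library, but with a log2 fold change of 0.74 ± 0.26 (SE) the adjusted p was 0.166, so this gene did not pass the test.

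BAG4 encodes a BAG-domain partner of HSP70, known in human cells for binding the death domain of tumor necrosis factor receptor 1. It was at 148, 166 and 162 CPM in mutant ovaries, against 121, 113 and 125 CPM in WT ovaries. The genotypes did not overlap. The log2 fold change was 0.41 ± 0.08 (SE), with an adjusted p of 0.0385 in edgeR's quasi-likelihood test. This call was close to the threshold: leaving out any of the 6 libraries ended it, with adjusted p of 0.057 to 0.145 and log2 changes of 0.37 to 0.46, and so did keeping every gene with at least 1 count (adjusted p = 0.0528).

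**Figure D2:**
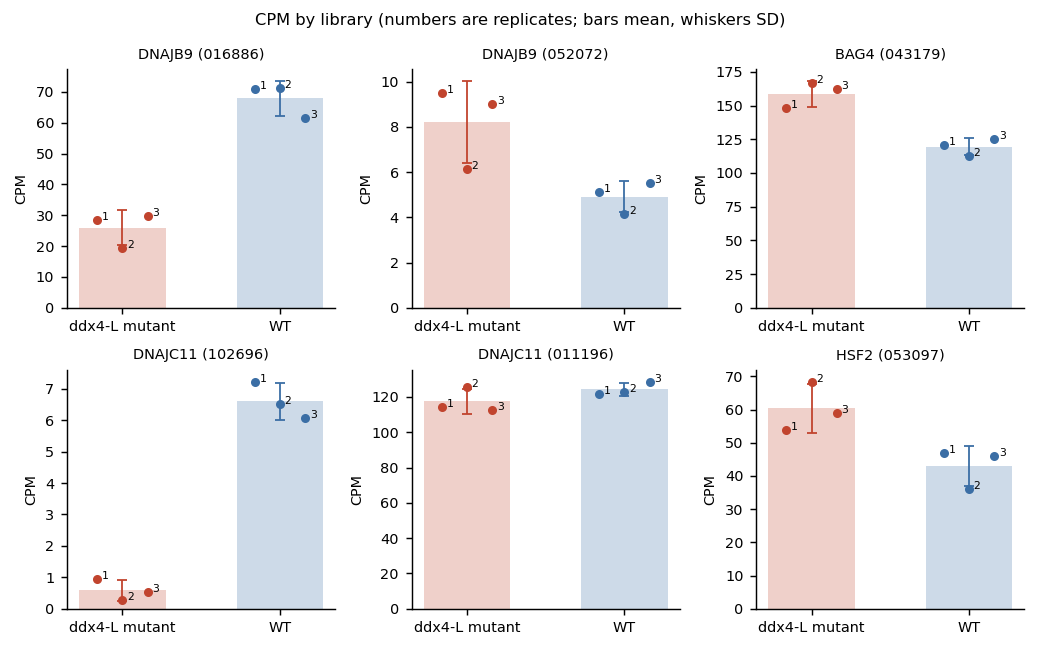
CPM in each library for the 3 called members, the second genes under the symbols DNAJB9 and DNAJC11, and HSF2, with ddx4-L mutants in red on the left and WT in blue on the right. Points are libraries numbered by replicate, bars are means and whiskers are SD (n = 3). The red and blue points do not overlap in any panel except DNAJC11 (ENSDARG00000011196), and DNAJB9 (ENSDARG00000052072) is higher in mutants while DNAJB9 (ENSDARG00000016886) is lower.

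With case ignored, 10 symbols were each shared by 2 members, 20 genes in all. Zebrafish keep duplicate copies of many genes, but whether each pair is such a duplicate was not tested. The ratio of the 2 genes was taken within each library, so that scaling between libraries cancels. The ratio of DNAJB9 (ENSDARG00000016886) to DNAJB9 (ENSDARG00000052072) was 2.98, 3.15 and 3.31 in mutant ovaries, against 13.9, 17.2 and 11.2 in WT ovaries. The ratio of DNAJC11 (ENSDARG00000011196) to DNAJC11 (ENSDARG00000102696) was 122, 458 and 207 in mutant ovaries, against 16.8, 18.8 and 21.2 in WT ovaries. DNAJA2 gave smaller differences: the ratio of ENSDARG00000104066 to ENSDARG00000010745 was 3.04, 3.56 and 3.89 in mutant ovaries, against 4.17, 4.53 and 5.05 in WT ovaries. For DNAJB12 the ratio of ENSDARG00000039363 to ENSDARG00000087473 was 1.39, 1.22 and 1.86 in mutant ovaries, against 1.13, 1.15 and 1.18 in WT ovaries. These 4 ratios did not overlap between genotypes. Each had an exact two-sided permutation p of 0.1, the smallest this design allows, which is 0.25 after Benjamini-Hochberg adjustment over the 10 pairs. The other 6 pairs (bag6, CCT2, DNAJC5, DNAJC16, HSPA4 and HSPA8) overlapped, with exact p of 0.3 to 0.9. How reads that fit more than 1 place were counted is not given in the sources used here, so reads of near-identical copies may have been split between them.

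**Figure D3:**
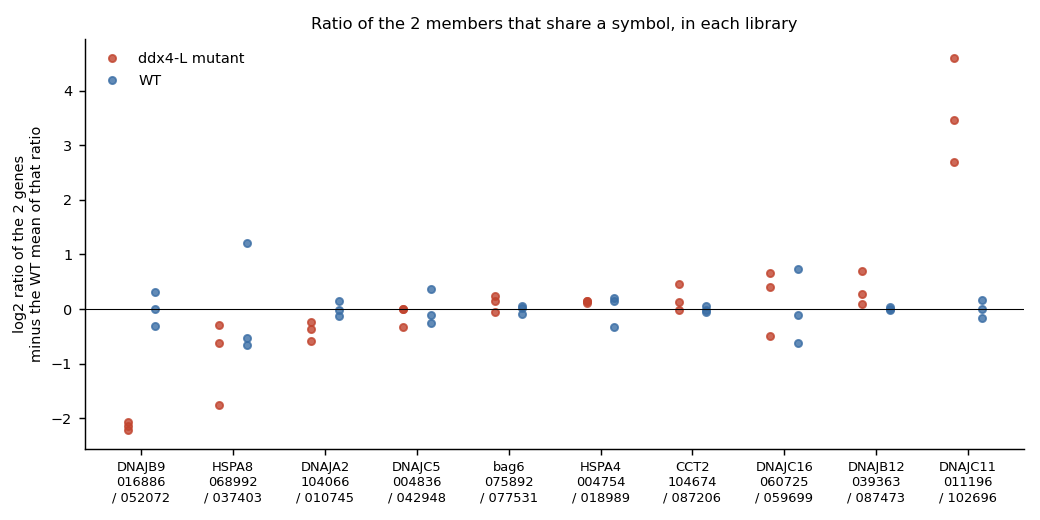
Log2 ratio of the 2 members that share a symbol, in each library, after subtracting the mean WT log2 ratio of that pair (ddx4-L mutants in red on the left, WT in blue on the right, 3 libraries each). The DNAJB9 ratios lie lowest and the DNAJC11 ratios highest in mutants, with WT libraries around 0, and the 6 pairs whose genotypes overlap are among the 8 between them.

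Among the transcription factors, hsf1, the main driver of the heat shock response, was at 35.3, 28.3 and 26.5 CPM in mutant ovaries, against 35.5, 21.6 and 35.1 CPM in WT ovaries. Its genotypes overlapped, with WT replicate 2 the lowest library (log2 fold change -0.03, 95% interval -0.54 to 0.48). HSF2, a related factor with roles in mammalian gametogenesis, was at 53.9, 68.4 and 59.0 CPM in mutant ovaries, against 46.9, 36.1 and 46.0 CPM in WT ovaries. All 3 mutant libraries were above all 3 WT libraries. With a log2 fold change of 0.49 ± 0.14 (SE), its adjusted p was 0.106 in edgeR's quasi-likelihood test and 0.0396 in DESeq2. The third factor, hsf5, was at 0.101 to 0.301 CPM in mutant ovaries and 0.119 to 0.752 CPM in WT ovaries, close to the floor.

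Of the targets that heat shock induces, none passed the test. The cytosolic inducible gene hsp70.1 was at 5.24, 5.22 and 6.26 CPM in mutant ovaries, against 11.4, 3.63 and 6.03 CPM in WT ovaries. WT replicate 1 was the highest library and WT replicate 2 the lowest, and the log2 fold change of -0.34 turned to 0.21 without WT replicate 1. A second inducible gene, hsp70.3, was at 3.54, 4.30 and 3.97 CPM in mutant ovaries, against 7.00, 5.24 and 4.79 CPM in WT ovaries. Its genotypes did not overlap, but the log2 fold change of -0.53 ± 0.26 (SE) had an adjusted p of 0.312. The same held for hspa1b, with log2 -0.54 and adjusted p of 0.37. These cytosolic HSP70 genes are close relatives, so their separate counts are uncertain. hsp70l was at 0.896 to 2.65 CPM in mutant ovaries and 1.15 to 1.68 CPM in WT ovaries, with mutant replicate 1 highest. dnajb1a and dnajb1b, the J-domain partners of inducible HSP70, gave log2 fold changes of -0.36 (adjusted p = 0.417) and 0.00 (adjusted p = 0.992). hsp90aa1.1, the inducible HSP90 gene that fish muscle needs for myosin folding, was at 5.94, 5.43 and 5.07 CPM in mutant ovaries, against 4.51, 6.36 and 6.42 CPM in WT ovaries, and BAG3, an inducible partner of HSP70 in the clearance of aggregates, was at 1.64, 1.22 and 1.32 CPM in mutant ovaries, against 1.03, 1.23 and 1.57 CPM in WT ovaries. Both overlapped between genotypes.

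Most HSP70 counts, not corrected for length, came from HSPA5, the main HSP70 of the endoplasmic reticulum, and from HSPA8 (ENSDARG00000068992), the constitutive cytosolic form. HSPA5 was at 2335, 2778 and 3125 CPM in mutant ovaries, against 3031, 3027 and 3233 CPM in WT ovaries. Mutant replicates 1 and 2 were below all WT libraries and mutant replicate 3 was within them (log2 fold change -0.17, 95% interval -0.49 to 0.14, adjusted p = 0.537). HSPA8 was at 2212, 2424 and 2347 CPM in mutant ovaries, against 2701, 2394 and 2290.1 CPM in WT ovaries, and overlapped. HSPA9, the mitochondrial HSP70, gave a log2 fold change of -0.02 with an interval of -0.27 to 0.23. HSPA14, which in human cells assists chains leaving the ribosome together with DNAJC2, was at 131, 143 and 137 CPM in mutant ovaries, against 168, 159 and 158 CPM in WT ovaries. DNAJC2 itself was at 82.5, 103 and 103 CPM in mutant ovaries, against 108, 105 and 118 CPM in WT ovaries. Neither partner overlapped between genotypes, and neither passed the test (log2 -0.24 and -0.20, adjusted p of 0.136 and 0.366). HSPA13, an HSP70 of the endoplasmic reticulum that lacks the client-binding domain, was at 65.3, 98.5 and 75.2 CPM in mutant ovaries, against 44.0, 67.5 and 36.7 CPM in WT ovaries. Replicate 2 was the highest library in each genotype and the ranges overlapped (log2 0.69 ± 0.25 (SE), adjusted p of 0.177, and 0.0473 in DESeq2).

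All 4 HSP90 genes had negative fold changes with TMM scaling, hsp90aa1.1 turned positive with total-count scaling, and none was called. HSP90AB1, the constitutive cytosolic form, was at 2477, 2972 and 2818 CPM in mutant ovaries, against 2985, 3097 and 3089 CPM in WT ovaries. HSP90B1, the form of the endoplasmic reticulum, was at 1937, 2335 and 2455 CPM in mutant ovaries, against 2481, 2397 and 2526 CPM in WT ovaries. Mutant replicate 1 was the lowest library for each of these genes, as it was for HSPA5. The log2 fold changes were -0.15 (95% interval -0.42 to 0.12) and -0.14 (-0.43 to 0.15). Among the 235 genes tested with a mean of at least 500 CPM, the median was -0.12, with a middle 50% of -0.25 to 0.01, and HSPA5, HSPA8, HSP90AB1 and HSP90B1 all lay in that range. The gene listed as HSP90AA1 (ENSDARG00000024746) was at 2.02, 1.03 and 2.23 CPM in mutant ovaries, against 4.02, 5.84 and 2.27 CPM in WT ovaries. The genotypes were apart only by the small gap between mutant replicate 3 and WT replicate 3, and the log2 fold change of -1.20 ± 0.46 (SE) had an adjusted p of 0.208.

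The 8 CCT genes differed little between genotypes. Their log2 fold changes ran between -0.22 and 0.24, all 8 under 0.25 in size, and none was called. CCT2 (ENSDARG00000104674), CCT3, CCT5 and CCT7 were within 0.07 of 0. CCT4 was at 284, 295 and 291 CPM in mutant ovaries, against 235, 291 and 209 CPM in WT ovaries, with WT replicate 2 among the mutant values (log2 0.24, adjusted p = 0.345). The second CCT2 gene, cct2 (ENSDARG00000087206), was at 37.0, 39.0 and 37.3 CPM in mutant ovaries, against 43.9, 44.0 and 43.9 CPM in WT ovaries. Its genotypes did not overlap (log2 -0.22 ± 0.09 (SE), adjusted p = 0.238). Mutant replicate 1 was the lowest library for 6 of the 8 genes. CCT6B and CCT8 gave log2 fold changes of -0.08 and 0.07. HSPD1 and HSPE1, the mitochondrial chamber and its lid, gave 0.09 (adjusted p = 0.69) and -0.09 (adjusted p = 0.674), and both overlapped between genotypes.

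**Figure D4:**
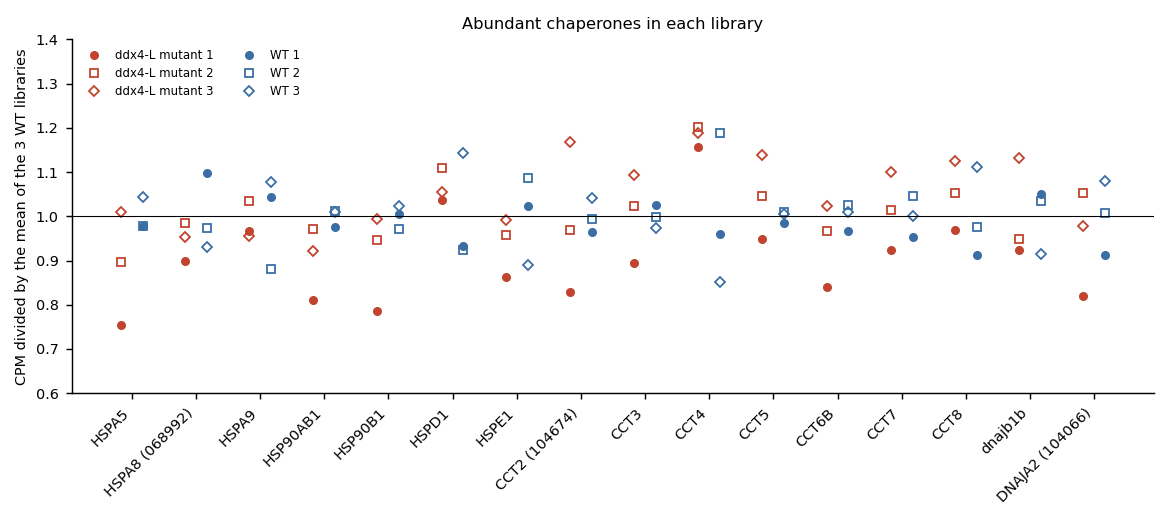
CPM of 16 abundant chaperones in each library, divided by the mean of the 3 WT libraries of that gene (ddx4-L mutants in red on the left, WT in blue on the right, symbols by replicate). The 16 were picked by hand. BAG4, bag6 (ENSDARG00000075892), HSPA14, DNAJA2 (ENSDARG00000010745) and DNAJC2, abundant members without overlap between genotypes, are not shown. Most points of the 16 genes lie near 1. ddx4-L mutant replicate 1 (filled red circles) is often the lowest, as in HSPA5, where it was at 2335 CPM against a WT mean of 3097 CPM.

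Mutant replicate 1 was the lowest of the 6 libraries for 32 of the 97 tested members, against 11 to 18 members for each other library. It was also the lowest for 27 of 70 tested folding pathway genes outside the members. No such count over all genes tested is given here. This library also had the largest TMM factor, 1.08, against 1.00 and 1.01 in the other mutant libraries and 0.968 to 0.978 in WT libraries. The summed level of the 11 stroma and vessel markers was highest in it, at 212 CPM, against 39.9 and 111 CPM in the other mutant libraries and 41.1 to 118 CPM in WT libraries. The 8 leukocyte markers likewise summed to 104 CPM in it, against 37.1 and 76.1 CPM in the other mutant libraries and 23.5 to 72.7 CPM in WT libraries. Whether these facts bear on the chaperone values was not tested. The summed CPM of all members was 15753, 18052 and 18209 in mutant ovaries, against 18415, 18196 and 18514 in WT ovaries, so the sums of mutant replicate 3 and WT replicate 2 crossed.

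J-domain genes made up 50 of the 97 tested members. Of these 50, 2 were called, both lower in mutants, against 4.57% called over all genes tested. In the DNAJB family 10 of 13 genes had negative fold changes and the median was -0.16, but DNAJB9 (ENSDARG00000016886) alone was called. DNAJB12 (ENSDARG00000087473), which holds a J domain at the membrane of the endoplasmic reticulum, was at 48.9, 49.9 and 38.8 CPM in mutant ovaries, against 67.1, 60.8 and 59.4 CPM in WT ovaries. The genotypes did not overlap, and the adjusted p was 0.0972 in edgeR's quasi-likelihood test and 0.0248 in DESeq2. DNAJB11, an HSPA5 partner, overlapped, at a log2 fold change of -0.12, as did dnajb6b at -0.10. DNAJB14 was at 0.036 to 0.144 CPM in mutant ovaries and 0.094 to 0.285 CPM in WT ovaries, at or near the floor. Among the DNAJA genes, DNAJA2 (ENSDARG00000010745), a cytosolic partner of HSPA8, was at 139.6, 154 and 131 CPM in mutant ovaries, against 114, 115 and 111 CPM in WT ovaries. It did not overlap and missed the threshold (log2 0.32 ± 0.08 (SE), adjusted p = 0.0804). With total-count scaling its adjusted p was 0.0397.

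In the DNAJC family 15 of 31 genes had positive and 16 negative fold changes, with a median of -0.01, and 10 did not overlap between genotypes, against 28.4% of all genes. dnajc4 was at 1.22, 2.20 and 1.90 CPM in mutant ovaries, against 3.53, 4.12 and 5.47 CPM in WT ovaries. All mutant libraries were below all WT libraries, and the log2 fold change of -1.30 ± 0.35 (SE) had an adjusted p of 0.0867 in edgeR's quasi-likelihood test and 0.00652 in DESeq2. DNAJC24, which takes part in making diphthamide on elongation factor 2, was at 18.1, 20.6 and 23.6 CPM in mutant ovaries, against 29.3, 29.8 and 32.0 CPM in WT ovaries (log2 -0.55, adjusted p = 0.0722). DNAJC19, which belongs to the motor that imports proteins into mitochondria, was at 8.11, 6.63 and 8.64 CPM in mutant ovaries, against 4.78, 4.95 and 4.44 CPM in WT ovaries (log2 0.72, adjusted p = 0.12). These 2 genes did not overlap, in opposite directions, and passed in DESeq2 (adjusted p of 0.00837 and 0.0174). DNAJC17, a splicing-related gene, and dnajc3b, known in mammals as an inhibitor of the kinase EIF2AK3, were higher without overlap at log2 0.54 and 0.58, and dnajc30b, of mitochondria, was lower without overlap at log2 -0.50. None of them passed the test. DNAJC1, DNAJC10 and dnajc8 had log2 fold changes of 0.02, -0.08 and -0.01. DNAJC5B was at 0.404 to 0.720 CPM in mutant ovaries and at 0 to 0.295 CPM in WT ovaries, where WT replicate 2 had no count (adjusted p = 0.423).

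The low-level members varied most. hspb9l, a small heat shock protein gene, was at 3.08, 0.418 and 0.442 CPM in mutant ovaries, against 0.470, 0.305 and 0.119 CPM in WT ovaries. Only mutant replicate 1 stood above the WT range, and without it the log2 fold change was 0.53 in place of 2.14. HSPA12B, known from blood vessel endothelium, was at 1.70, 0.850 and 0.555 CPM in mutant ovaries, against 0.389, 0.146 and 0.605 CPM in WT ovaries, again with mutant replicate 1 highest. SERPINH1 (ENSDARG00000075954), the collagen chaperone of the endoplasmic reticulum, was at 3.90, 0.680 and 3.04 CPM in mutant ovaries, against 0.967, 1.35 and 2.22 CPM in WT ovaries. The collagen gene col1a1a was at 48.4, 4.20 and 22.8 CPM in mutant ovaries, against 6.51, 5.76 and 19.3 CPM in WT ovaries. Mutant replicates 1 and 3 and WT replicate 3 were the highest libraries for both genes and mutant replicate 2 the lowest. However, col1a1a is only 1 of the 11 stroma and vessel markers. Of these 11, 7 had positive and 4 negative fold changes, with none called and none without overlap. The part of connective tissue in the SERPINH1 value was not tested. HSPB1, the small heat shock protein gene with the most counts, was at 5.89, 5.15 and 7.56 CPM in mutant ovaries, against 4.15, 3.35 and 5.59 CPM in WT ovaries, with overlap and an adjusted p of 0.388. A second, low HSPA8 gene (ENSDARG00000037403) was at 1.06 to 2.68 CPM in mutant ovaries and 0.356 to 1.53 CPM in WT ovaries.

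BAG2, a partner of HSP70 that slows client ubiquitination, was the member left untested by the filter on low counts. It was at 0.372, 0.196 and 0.126 CPM in mutant ovaries and at 0 in all 3 WT ovaries, and it entered the list through its mutant counts alone. Mutant replicate 3 was itself below the floor, so no fold is given. Both BAG6 genes, whose product guards newly made membrane proteins in the cytosol, were lower without overlap. bag6 (ENSDARG00000075892) was at 161, 186 and 125 CPM in mutant ovaries, against 190.2, 188 and 191 CPM in WT ovaries. BAG6 (ENSDARG00000077531) was at 42.6, 43.1 and 27.1 CPM in mutant ovaries, against 46.4, 47.0 and 51.5 CPM in WT ovaries. Mutant replicate 3 was the lowest library for both, and neither passed the test (adjusted p of 0.344 and 0.327). Of the 97 members tested in edgeR, DESeq2 called 9 (9.28%), against 11.2% of the genes it tested: BAG4, DNAJB9 (ENSDARG00000016886), DNAJB12 (ENSDARG00000087473), dnajc4, DNAJC11 (ENSDARG00000102696), DNAJC19, DNAJC24, HSF2 and HSPA13.

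The genes matched by name only were not called. HSF2BP, a meiotic recombination factor in mice named for binding HSF2, was at 15.5, 13.6 and 11.0 CPM in mutant ovaries, against 8.45, 10.2 and 7.66 CPM in WT ovaries. Its genotypes did not overlap (log2 0.61 ± 0.21 (SE), adjusted p = 0.162). HSPBP1, HSPBAP1 and hspb11 overlapped at log2 fold changes of 0.07, 0.19 and 0.05. The human gene HSPB11 encodes a subunit of cilia transport, and whether the zebrafish gene of that name does, or is a small heat shock protein gene, was not tested.

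**Figure D5:**
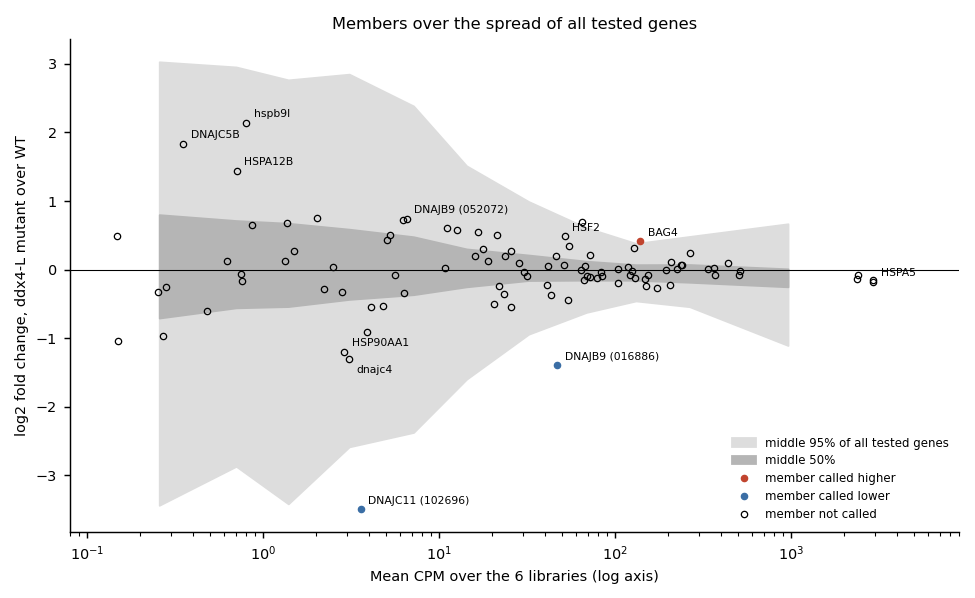
Log2 fold change (ddx4-L mutant over WT) of each tested member against its mean CPM over the 6 libraries on a log axis, over bands that hold the middle 50% and 95% of all tested genes in 11 ranges of mean CPM, joined at the median of each range. Outside the 95% range of their own level were 4 of 97 members (4.12%), among them DNAJC11 (ENSDARG00000102696), DNAJB9 (ENSDARG00000016886) and BAG4, and members at low CPM scatter most.

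The members were also read by cell compartment. The 19 genes assigned to the lumen or membrane of the endoplasmic reticulum included 8 with positive and 11 with negative fold changes, 4 without overlap and 1 called, DNAJB9 (ENSDARG00000016886). Of 11 mitochondrial genes, 5 were positive and 6 negative, 3 did not overlap and 1 was called, DNAJC11 (ENSDARG00000102696). Both sets are to be read against the shares over all genes, 28.4% without overlap and 4.57% called. The mitochondrial genes summed to 1337, 1404 and 1371 CPM in mutant ovaries, against 1352, 1283 and 1459 CPM in WT ovaries. The endoplasmic reticulum genes summed to 5391, 6353 and 6807 CPM in mutant ovaries, against 6765, 6724 and 6941 CPM in WT ovaries. Both sums overlapped between genotypes. Most of the endoplasmic reticulum sum came from HSPA5 and HSP90B1, and most of the mitochondrial sum from HSPA9 and HSPD1, so the sums say little about the other genes. Among 70 tested genes of the folding pathway outside the members (HSP90 and HSP70 partners, prefoldin, tubulin cofactors, and folding factors of the endoplasmic reticulum), 1 rose, 0 fell, 18 did not overlap and the median log2 fold change was -0.03, against the same shares of 4.57% called and 28.4% without overlap over all genes. The gene that rose was calr3b, a calreticulin, at 201, 156 and 173 CPM in mutant ovaries, against 124, 103 and 114 CPM in WT ovaries (log2 0.63 ± 0.12 (SE), adjusted p = 0.0319 in edgeR's quasi-likelihood test). No mutant library overlapped the WT range. Its call was lost without mutant replicate 1 or 3 or any WT replicate and kept without mutant replicate 2. Its relative calr3a was at 539, 512 and 714 CPM in mutant ovaries, against 781, 686 and 774 CPM in WT ovaries, and overlapped. TCP1, the CCT subunit whose symbol the rule does not match, overlapped at log2 -0.06.

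Of 25 tested stress regulators, none passed edgeR's quasi-likelihood test, 6 had an unadjusted p under 0.05, DESeq2 called 4, and 9 did not overlap, 2 higher and 7 lower in mutants. The shares over all genes were 19.9% at an unadjusted p under 0.05, 11.2% in DESeq2 and 28.4% without overlap. XBP1, the transcription factor that IRE1 activates and a regulator of DNAJB9 in mammals, was at 625, 728 and 864 CPM in mutant ovaries, against 626, 677 and 698 CPM in WT ovaries. It overlapped, with a log2 fold change of 0.15 and an interval of -0.16 to 0.46. A count per gene does not show its spliced form. EIF2AK3, the stress kinase PERK, was at 155, 195 and 125 CPM in mutant ovaries, against 249, 256 and 222 CPM in WT ovaries, and atf4a, the factor made when that kinase is active, was at 265, 318 and 331 CPM in mutant ovaries, against 380.3, 374 and 377 CPM in WT ovaries. Both were lower without overlap, with adjusted p of 0.082 and 0.152. ppp1r15a, which reverses the action of the kinase, was lower without overlap as well (log2 -0.44, adjusted p = 0.0642). Other stress genes stood higher without overlap, GADD45B (ENSDARG00000027744), a gene of the DNA damage and stress response, at log2 0.98 (adjusted p = 0.0883) and nfe2l1b at log2 0.47 (adjusted p = 0.148). Their relatives stood the other way, also without overlap. The second GADD45B gene (ENSDARG00000013576) was at log2 -0.99 and NFE2L1 (ENSDARG00000030616) at log2 -1.02 (adjusted p of 0.267 and 0.0593 in edgeR's quasi-likelihood test). The 4 genes that DESeq2 called were EIF2AK3 (DESeq2 adjusted p = 0.00644), ppp1r15a (0.00528), NFE2L1 (ENSDARG00000030616, 0.000749) and GADD45B (ENSDARG00000027744, 0.00446). DDIT3, a factor downstream of ATF4 in mammals, overlapped at log2 0.25. The immediate early genes, used as a sign of handling, had 0 calls among 18 tested in edgeR's quasi-likelihood test, 3 at an unadjusted p under 0.05 and 2 in DESeq2, against 19.9% and 11.2% of all genes. The 2 were egr1 and ier2b, higher in mutants without overlap (log2 1.75 and 0.96), and the third was JUNB (ENSDARG00000074378), higher with overlap. Of the 18 genes, 8 had positive and 10 negative fold changes, and 4 did not overlap, 2 higher and 2 lower. Whether handling differed was not tested.

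The 12 genes that matched by symbol and did not pass the minimum were HSF4, HSPB2, HSPB3, HSPB7, hspb6, hspb9, hspb15, DNAJB5, DNAJC22, hspa12a.1, hspa12a.2 and a second SERPINH1 gene (ENSDARG00000019949). Just outside it, SERPINH1 (ENSDARG00000019949) had 25, 9 and 12 counts in mutant ovaries, against 0, 5 and 8 counts in WT ovaries. Just inside it, DNAJB14 had 3, 11 and 9 counts in mutant ovaries, against 7, 17 and 24 counts in WT ovaries, and BAG2 had 31, 15 and 10 counts in mutant ovaries and 0 in WT ovaries. Of the members, 92 reached the minimum in all 6 libraries.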

How the data were processed

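RNA-seq of ovaries at 6 mpf covered 3 ddx4-L mutant and 3 WT libraries. Per the study's methods, the authors aligned clean reads to GRCz11 (STAR) and obtained counts with featureCounts, whereas the submitters' processing notes name HISAT2, StringTie, RSEM and DESeq2, without versions. How multiply mapped reads, strand and annotation were handled is not given in the sources used here. The deposited table holds whole numbers per Ensembl gene, not scaled between libraries. The most frequent value above 0 is 4 in every library, so 1 fragment appears to be worth about 4 units, and the values deposited by the authors were treated as estimated counts. The floor was 3 fragments, or 12 counts.

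Gene symbols were taken from a gene table for 29200 of 32519 IDs. Members and gene lists were chosen with earlier results of these data known. Genes were filtered with filterByExpr, scaled by TMM and tested with edgeR 4.0.16 (quasi-likelihood test, R 4.3.3, ddx4-L mutant over WT, Benjamini-Hochberg adjustment over 19353 genes, threshold 0.05). The test was also run on simulated counts with a fixed dispersion and known changes. That simulation held no small change, no change in a low-count gene and no table with several units per fragment, so it does not cover those cases. SE was the size of the log2 fold change over the square root of F, and 95% intervals used 7.38 degrees of freedom. Ratios and marker sums were compared between genotypes by an exact permutation test. Named genes were the called members, the 5 highest and 5 lowest fold changes, the most abundant member of each family, a core list of classical chaperones, members matched by name only and, of other lists, the called genes. Other genes without overlap, DESeq2 calls, compartments and pairs were chosen after their values were seen. As alternatives, scaling was changed (RLE, upper quartile, total counts), as was the filter on low counts (at least 1 count, or a mean of 10), and the fit was repeated with DESeq2 1.42.0, robust dispersion, values divided by 4, a replicate block, an adjusted p under 0.1 and without each library. All columns were used, and no sequences were analysed here.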

Additional observations from a re-analysis of the deposited data

How the results depend on the processing

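The calls of DNAJB9 (ENSDARG00000016886) and DNAJC11 (ENSDARG00000102696) were kept under every alternative run. BAG4 was lost with any library left out, with all genes of at least 1 count and in the block. The members called were 2 to 4 under other settings, 2 with each library left out, 10 in DESeq2 (with BAG2, which entered the list through its mutant counts alone) and 7 at an adjusted p under 0.1. With a log2 fold change of at least 1, DESeq2 called 4, again with BAG2. Pathway genes called were 4 with total-count scaling, 2 with robust dispersion, 2 with values divided by 4, 6 in DESeq2, 5 at an adjusted p under 0.1 and 0 to 1 with each library left out. Members without overlap numbered 24 to 27, against 23.1% to 30.0% of all genes, and 34 to 38 with a library left out, where 2 libraries face 3, against 36.3% to 38.9% of all genes. The median log2 fold change of small heat shock proteins ran between 0.34 and 1.76 with a library left out, the higher without WT replicate 3.

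None of the named genes that changed sign was called. Total-count scaling, which shifted the median of all genes to 0.096, gave log2 fold changes of 0.058 for CCT2 (ENSDARG00000104674), 0.00065 for DNAJA2 (ENSDARG00000104066), 0.060 for HSPA9, 0.053 for hsf1 and 0.010 for hsp90aa1.1. CCT3 was at -0.0017 with RLE, -0.0088 with upper-quartile scaling and -0.0012 in DESeq2. dnajb1b was at -0.0053 with RLE, -0.011 with upper-quartile scaling, -0.0028 with values divided by 4, -0.00095 in the block and -0.0047 in DESeq2. With each library left out, log2 fold changes ran between -0.010 and 0.30 for BAG3, -0.15 and 0.094 for CCT2, -0.060 and 0.081 for CCT3, -0.0032 and 0.13 for CCT5, -0.046 and 0.078 for CCT7, -0.16 and 0.019 for DNAJA2 (ENSDARG00000104066), -0.038 and 0.067 for DNAJC1, -0.11 and 0.036 for HSPA9, -0.035 and 0.15 for HSPBP1, -0.094 and 0.056 for dnajb1b, -0.24 and 0.082 for hsf1, -0.65 and 0.21 for hsp70.1, -0.26 and 0.57 for hsp70l, -0.22 and 0.012 for hsp90aa1.1, and -0.087 and 0.29 for hspb11. The cause was not tested. Of 672 fits of 45 named genes, 621 kept direction and side of the threshold, 41 changed sign, 8 lost the call, all of BAG4, and 2 gained it, HSF2 and dnajc4 in DESeq2.

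The labels do not say whether the replicate numbers pair the samples. Deviations of same-numbered libraries from their group means correlated at -0.09, 0.12 and 0.01. Those of different-numbered libraries ran between -0.19 and 0.21. With 3 libraries a group, these values cannot decide whether the samples were paired. With the replicate block, 2 members were called, BAG4 had an adjusted p of 0.109, and 325 genes in all were called. Counting synonyms of gene symbols added 1 member, hsc70, which was not called. With 3 libraries a group, 35 of 97 members had intervals too wide or too far out to lie within a log2 change of 1.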
